A study of Mus musculus with 8 samples.

Results

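The mitotic kinesins are the microtubule motor proteins that build the spindle, move and align the chromosomes, and complete cell division. Expression of 10 of their genes, Kif11, Kif15, Kifc1, Kif2c, Kif18b, Kif22, Kif4, Kif23, Kif20a and Kif14, was examined in mouse RNA-seq libraries without and with the drug tranilast. The genes were picked by symbol from a table of 22063 genes, and all 10 were among the 10770 genes abundant enough to be tested. They were selected because earlier results of the same comparison showed them lower with tranilast, so their own differences between the groups are given as a description, with standard errors and without a test.

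Kinesins use ATP to walk along microtubules or to take microtubule ends apart. Those of mitosis are made mostly in late S, G2 and M phase, and their transcripts are scarce in resting cells, so that their summed level in a tissue or culture follows, among other things, how many cells are dividing. In the adult liver most hepatocytes are quiescent. Related kinesins outside mitosis carry vesicles, organelles and ciliary cargo and are made in dividing and resting cells alike.

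The study examined tranilast, an anti-allergic drug, in fatty liver disease, and this comparison concerned its effect on the liver transcriptome under a high-fat, high-cholesterol (HFHC) diet. There were 4 libraries labelled Control and 4 labelled Control+tranilast, all labelled wild type (WT) and liver. The HFHC diet of both groups is taken from the series design, as the sample labels name no diet. By the study's methods the mice were male C57BL/6J, and tranilast was gavaged daily in sodium carboxymethylcellulose, the vehicle. The sources used here give neither the dose of the sequenced mice nor whether each library was a separate animal, so error terms measure only the spread between these libraries.

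Library totals ranged from 14585153 to 15618787 estimated counts without the drug and from 12053036 to 14679386 with it. The markers did not match the liver label: 9 hepatocyte genes together took at most 0.000191% of the counts of any library, and Cps1, Serpina1a and Hnf4a had no count in any. The 10 macrophage markers took between 0.771% and 0.816% of the control counts and between 0.745% and 0.799% of the tranilast counts. Of these, Fcgr1 had 1104 to 1731 counts in control and 462 to 615 in tranilast libraries. Itgam ran from 6148 to 6689 and from 4486 to 5470 in the same order. Adgre1 (664 to 727 and 690 to 801) and Cd68 (7462 to 8756 and 7815 to 9196) overlapped between the groups. Most of the summed counts came from Lyz2 (61110 to 68975 and 51267 to 59908) and Csf1r (35855 to 38395 and 29718 to 33919). Mertk stayed at 1 or below, and C1qa, C1qb and C1qc reached no more than 11, 6 and 8. These counts are not scaled to the library totals. The Kupffer cell markers Clec4f, Vsig4 and Timd4 were at 0 in all 8 libraries, and summed marker counts per library were 5 to 10 for endothelial, 8 to 23 for stellate and 0 to 4 for lymphocyte genes. The part of these cell markers in the kinesin values was not tested, and the libraries are called control and tranilast below.

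All 10 mitotic kinesins were lower with tranilast, and for each of them the highest tranilast library was below the lowest control library. Separation of that kind was found for 25.2% of all genes tested in the downward direction and for 24.5% in the upward direction. All 10 also passed an adjusted p-value of 0.05 as lower, as did 28.8% of all genes tested, while 28.2% passed as higher, and nothing is read from these counts because the genes were chosen on this comparison. Counts scaled to the library total and by the TMM method, in the unit CPM, summed over the 10 genes to 1197 ± 28.6 (SD, n = 4) in control and to 525 ± 15.1 (SD, n = 4) in tranilast libraries, so that 43.9% of the control level was left. The 4 control sums ran from 1160 to 1225 and the 4 tranilast sums from 508 to 544. The median log2 fold change of the 10 genes, tranilast over control, was -1.23, or 2.34-fold lower, beside a median of 0.01 over all genes tested. In such bulk libraries fewer dividing cells and less kinesin RNA per cell cannot be told apart.

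**Figure D1:**
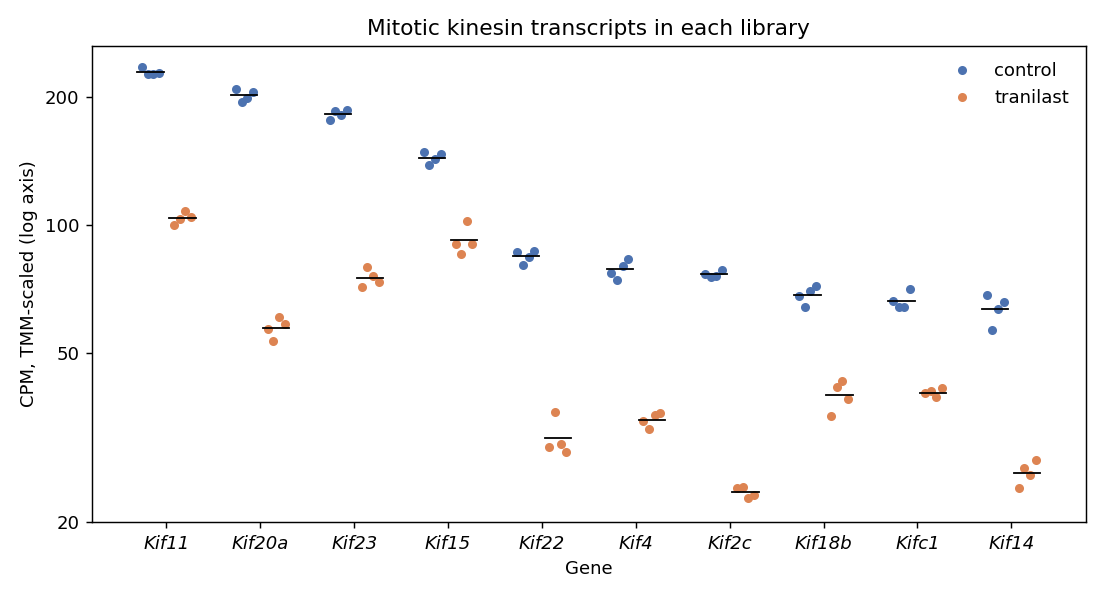
TMM-scaled CPM (log axis) of each of the 10 mitotic kinesin genes in the 4 control and 4 tranilast libraries, with the mean of each group as a line. In every gene the 4 tranilast points lie below the 4 control points, with the widest gap in Kif20a (202 to 57.5 CPM) and the narrowest in Kif15 (144 to 92.1 CPM).

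The 10 genes are transcribed from 9 chromosomes, and those of their promoters at hand were searched for short motifs. Promoter windows from RefSeq on GRCm38.p6 ran over 300 bases, from 250 bases before to 50 bases after the transcript start. The windows available here covered 9 of the 10 genes, Kif20a being the one without. The search covered, on both strands, TTTGAA, the core of the cell cycle genes homology region (CHR) known from promoters of late cell cycle genes, its variant TTCGAA, and the CCAAT box. The stretches around the CHR-type matches nearest to the start are shown because every one of the 9 windows held such a match. Capitals mark TTTGAA or, on the other strand, its reverse complement TTCAAA, and each run reads 5′ to 3′ along the gene's own strand. The 3 longer runs, from 75 bases before to 30 bases after the start, also hold a CCAAT box (or its reverse, ATTGG) upstream of the match.
Kif11 (chr19:37376307-37376411, plus strand): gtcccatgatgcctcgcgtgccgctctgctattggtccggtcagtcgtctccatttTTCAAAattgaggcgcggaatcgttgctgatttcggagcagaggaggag
Kif23 (chr9:61946770-61946874, minus strand): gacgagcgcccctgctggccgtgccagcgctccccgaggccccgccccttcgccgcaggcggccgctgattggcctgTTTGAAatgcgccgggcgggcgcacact
Kif18b (chr11:102925095-102925199, minus strand): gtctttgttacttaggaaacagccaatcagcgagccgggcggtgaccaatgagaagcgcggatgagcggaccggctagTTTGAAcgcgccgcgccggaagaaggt
Kif15 (chr9:122951050-122951079, plus strand): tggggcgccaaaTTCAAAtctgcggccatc
Kif22 (chr7:127042420-127042449, minus strand): gggccccggtaaTTCAAAagagagaagcgg
Kifc1 (chr17:33890615-33890644, minus strand): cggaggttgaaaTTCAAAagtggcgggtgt
Kif4 (chrX:100626072-100626101, plus strand): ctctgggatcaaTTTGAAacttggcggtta
Kif2c (chr4:117178858-117178887, minus strand): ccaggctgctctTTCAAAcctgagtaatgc
Kif14 (chr1:136467608-136467637, plus strand): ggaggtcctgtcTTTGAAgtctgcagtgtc
For contrast, Kif20b, a mitotic kinesin outside the 10, holds the match in tandem just after its start.
Kif20b (chr19:34922353-34922382, plus strand): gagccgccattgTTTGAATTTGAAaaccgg

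A TTTGAA match was present in 9 of 9 windows of the mitotic kinesins (100%), in 20.2% of the 27025 genes with a window and in 14.5% of the 8613 tested genes with one. It was also found in 8 of 13 windows of kinesin partner genes of the midzone and spindle (61.5%), in 2 of 7 other mitotic kinesins (Kif20b and Kifc5b) and in 3 of 18 transport and cilia kinesins. Within 25 bases of the RefSeq start, a distance chosen after the positions were seen, 7 of the 9 kinesins held it (77.8%), compared with 7 of 13 partner genes (53.8%) and 3.10% of all genes with a window. The other 2 matches lay farther upstream, at position -103 in Kif2c and -228 in Kif14, and both fall inside an intron of longer GENCODE transcripts of those genes. GENCODE starts can differ from those of RefSeq for the near matches too. The printed runs of Kif15, Kif22, Kifc1 and Kif4 lie with all 30 bases in a GENCODE exon of the gene. In GENCODE, Kif4 begins at 100625737, well upstream of its printed run. The CCAAT box was present in 7 of 9 kinesin windows (77.8%) and in 41.1% of all genes with a window, but also in 6 of 6 replication licensing genes, 4 of 5 light chain and accessory genes and 8 of 13 partners. The variant TTCGAA was in 0 of 9 kinesin windows and in 1.80% of all. These are matches of letters and not measured binding sites.

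**Figure D2:**
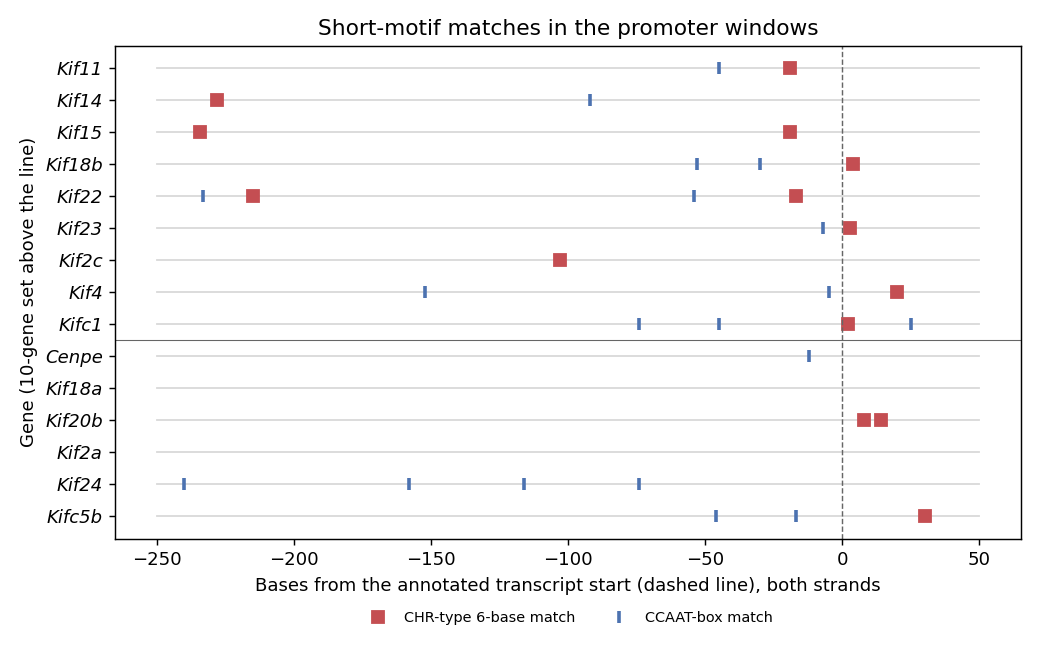
Positions, in bases from the RefSeq transcript start, of CHR-type matches (squares) and CCAAT-box matches (bars) in the 300-base windows of 9 mitotic kinesins, above the line, and 6 other spindle kinesins, below it. Squares lie within 25 bases of the start in 7 of the 9 upper genes, and farther upstream in Kif2c and Kif14.

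Kif11, Kif15 and Kifc1 set up the bipolar spindle. Kif11, also called Eg5, pushes the spindle poles apart by sliding antiparallel microtubules. Its level was 235, 227, 227 and 228 CPM in control libraries 1 to 4 and 99.98, 104, 108 and 105 CPM in tranilast libraries 1 to 4. The groups were far apart and each was tight. The Kif11 mean changed from 229 ± 4.01 to 104 ± 3.34 CPM (SD, n = 4) and its log2 fold change was -1.14 (SE 0.0342), which left 45.4% of the control level. Kif15 is a motor that crosslinks spindle microtubules and can stand in for Kif11 in keeping the poles apart. Kif15 stood at 149, 138, 143 and 147 CPM without and at 90.3, 85.7, 102 and 90.2 CPM with the drug. Tranilast library 3 was the highest of its group and still below every control library. The Kif15 mean went from 144 ± 4.57 to 92.1 ± 7.07 CPM (SD, n = 4) and its log2 fold change was -0.65 (SE 0.0475), the smallest of the 10. Kifc1 walks toward minus ends and focuses the poles, opposing Kif11. Kifc1 had 66.4, 64.3, 64.2 and 70.6 CPM in control and 40.2, 40.7, 39.4 and 41.4 CPM in tranilast libraries. Its 4 tranilast values were nearly level. The Kifc1 log2 fold change was -0.72 (SE 0.0488), with 60.9% left. Kifc1 shares 97.9% of 2326 aligned transcript bases with Kifc5b, so the split of reads between them is uncertain. Summed, the pair had 95.4 ± 2.88 CPM in control and 62.6 ± 0.931 CPM in tranilast libraries (SD, n = 4), a log2 ratio of -0.61.

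Kif2c, Kif18b, Kif22 and Kif4 act on microtubule ends and chromosomes. Kif2c, or MCAK, does not walk but dismantles microtubule ends and helps to correct faulty kinetochore attachments. Kif2c measured 77.0, 75.4, 75.9 and 78.7 CPM in control and 24.1, 24.2, 22.8 and 23.2 CPM in tranilast libraries. Both groups varied little. The Kif2c mean went from 76.7 ± 1.45 to 23.6 ± 0.662 CPM (SD, n = 4) and its log2 fold change was -1.70 (SE 0.0487) or 3.25-fold lower. Kif18b shortens astral microtubules at their plus ends. Kif18b gave 68.1, 64.1, 70.2 and 71.8 CPM and, with tranilast, 35.5, 41.6, 43.0 and 39.0 CPM. The lowest control library exceeded the highest tranilast library. The Kif18b log2 fold change was -0.79 (SE 0.059), with 57.9% left.

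Kif22, or Kid, binds DNA along chromosome arms and pushes them toward the spindle equator. Kif22 was at 86.3, 80.9, 84.1 and 87.0 CPM in control and at 30.1, 36.4, 30.6 and 29.3 CPM in tranilast libraries. Tranilast library 2 stood above the other 3, and the group's coefficient of variation of 10.3% was the highest among the 10 genes. The Kif22 log2 fold change was -1.42 (SE 0.0604), with 37.4% left. Kif4 is a chromosome-bound motor that works with condensin and, in anaphase, with Prc1 to limit the length of the midzone. Kif4 measured 77.2, 74.2, 80.4 and 83.5 CPM and, with tranilast, 34.6, 33.1, 35.7 and 36.1 CPM. Its tranilast values lay within a narrow band. The Kif4 log2 fold change was -1.18 (SE 0.0516), with 44.3% left. Kif4 overlaps Pdzd11 on the opposite strand, as Kif20a overlaps Cdc23, and the use of strand in counting was not given in the sources used here, so reads of these partners cannot be told apart in the shared stretches.

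Kif23, Kif20a and Kif14 serve cytokinesis. Kif23, or MKLP1, forms centralspindlin with Racgap1 and bundles the midzone microtubules. Kif23 stood at 177, 185, 182 and 186 CPM in control and at 71.6, 79.6, 76.0 and 73.4 CPM in tranilast libraries. Again there was a wide gap between the groups. The Kif23 mean changed from 183 ± 4.34 to 75.2 ± 3.47 CPM (SD, n = 4) and its log2 fold change was -1.28 (SE 0.0395). Kif20a, or MKLP2, brings the chromosomal passenger complex with the kinase Aurkb to the midzone. Kif20a (GRCm38 chromosome 18, 34624613 to 34633277, plus strand) had 209, 195, 199 and 206 CPM in control and 57.1, 53.6, 60.7 and 58.5 CPM in tranilast libraries. No library came near the other group. The Kif20a mean changed from 202 ± 6.66 to 57.5 ± 2.99 CPM (SD, n = 4) and its log2 fold change was -1.82 (SE 0.0425), and 28.4% of the control level was left. Of all 10770 genes tested it had the rank 29 from the lowest log2 fold change. Kif14 binds Prc1 and the citron kinase Cit at the midbody, where daughter cells part. Kif14 gave 68.6, 56.6, 63.5 and 66.0 CPM and, with tranilast, 24.1, 26.8, 25.8 and 28.0 CPM. Control library 2 was the lowest of its group, and the coefficient of variation there, 8.11%, was the widest of the 10 genes in control. The Kif14 log2 fold change was -1.28 (SE 0.0654), with 41.2% left.

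The 10 genes thus covered a range of 1.17 in log2 fold change, a 2.25-fold difference between Kif20a and Kif15. Kif20a and Kif2c were at a log2 fold change of -1.5 or below with an adjusted p-value under 0.05, a limit passed by 52 genes or 0.483% of those tested. As the 10 genes were chosen on this comparison, nothing is read from their passing that limit. Values also differed within a functional class: among the spindle builders Kif11 was at -1.14 and Kif15 at -0.65, and among the end-directed motors Kif2c was at -1.70 and Kif18b at -0.79. Control library 4 was the highest of its group for 6 genes and library 1 for the other 4, while control library 2 was the lowest for 8. In the tranilast group the highest library was 3 for 4 genes, and 2 and 4 for 3 genes each. Kif11 and Kif4 lay nearest to the mean profile of the 10 genes, with root mean square differences of 0.0482 and 0.0502 in log2 CPM over the 8 libraries. Kif20a was the farthest at 0.441. Each gene was centred on its control mean, so these differences mostly measure gaps in log2 fold change, not tracking from library to library. Outside the 10, the genes nearest to that mean profile among 9755 candidates were Anln at 0.0296, Racgap1 at 0.0461, Ccna2 at 0.0478, Cdca8 at 0.0502 and Lpl at 0.0593. Anln is the cleavage furrow scaffold anillin, Ccna2 is cyclin A2, Cdca8 is borealin of the passenger complex, and Lpl is lipoprotein lipase, whose log2 fold change was -1.16 (SE 0.0308).

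Levels of different genes were compared on the deposited FPKM scale, which divides by transcript length. Among the control libraries Kif23 (60.7 ± 1.32 FPKM, SD, n = 4) and Kif20a (59.2 ± 1.74) were highest and overlapped. They were followed by Kif11 (45.7 ± 0.951) and Kif22 (38.4 ± 1.44), each separate from its neighbors in that order. Kif15 (30.5 ± 1.84) overlapped Kifc1 (28.0 ± 1.89), which overlapped Kif2c (26.0 ± 0.538), and Kif18b (19.8 ± 0.998), Kif4 (15.2 ± 0.795) and Kif14 (8.97 ± 0.847) closed the order without overlap. With tranilast Kif23 (27.6 ± 1.16 FPKM) stayed first, and Kif11 (22.5 ± 0.748) overlapped Kif15 (22.3 ± 2.73). Kifc1 (18.3 ± 0.649), Kif20a (18.3 ± 0.875) and Kif22 (15.6 ± 1.60) formed a chain of overlapping neighbors. Kif18b (12.4 ± 1.05) now lay above Kif2c (8.63 ± 0.242), and Kif4 (7.28 ± 0.288) and Kif14 (3.97 ± 0.253) were again lowest.

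The same values can be read as a mix of kinesin transcripts. Kif20a supplied 17.8% of the summed FPKM of the 10 genes in control and 11.6% in tranilast libraries, and Kif2c 7.81% and 5.50%. Kif15 supplied 9.18% and 14.2%, and Kifc1 8.43% and 11.7%. Kif22 went from 11.6% to 9.94% and Kif18b from 5.95% to 7.92%, each without overlap between the groups. The shares of Kif23 (18.3% and 17.6%), Kif11 (13.7% and 14.3%), Kif4 (4.57% and 4.65%) and Kif14 (2.69% and 2.53%) were near each other in the groups. Kif15 was also the gene for which counts and FPKM diverged most. Of its control mean 63.8% was left by CPM but 73.1% by FPKM. The CPM are TMM-scaled and the FPKM are not. With library size alone the Kif15 log2 fold change was -0.53, beside -0.65 with TMM, and Kif11 too had 45.4% left by CPM and 49.2% by FPKM. For Kif15, tranilast library 2 was the lowest of its group by CPM (85.7) and the highest by FPKM (25.9). The transcript length implied by the deposited count, FPKM and library total was 3457 bases there and up to 4679 bases in the other tranilast libraries, against 4328 to 4714 bases in control. For Kif11, Kif4 and Kif18b the implied length was the same in every library to within 1 base.

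**Figure D3:**
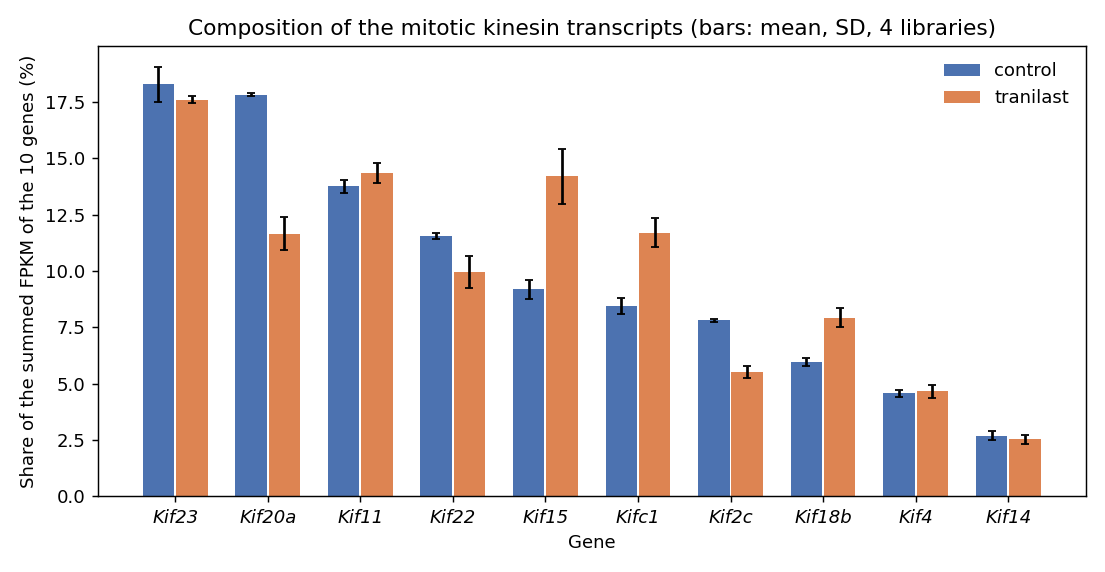
Share (%) of the summed FPKM of the 10 mitotic kinesins held by each gene, as mean and SD over 4 control and 4 tranilast libraries. Kif20a drops from 17.8% to 11.6%, Kif15 goes from 9.18% to 14.2%, and Kif23, Kif11, Kif4 and Kif14 keep similar shares.

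Each kinesin was next set beside a protein it works with, as a ratio of FPKM values within a library. Kif23 and Racgap1, the parts of centralspindlin, kept their proportion by FPKM. The ratio was 0.918 ± 0.0508 in control and 0.900 ± 0.0474 in tranilast libraries (SD, n = 4), and the groups overlapped. As a ratio of CPM, Kif23 to Racgap1 was 1.03 ± 0.0425 and 0.940 ± 0.0525, and the groups overlapped only through tranilast library 2, at 1.02. The ratio of Kif20a to Aurkb, its cargo kinase, was 0.834 ± 0.0201 and 0.437 ± 0.0166 without overlap. The ratio of Kif4 to Prc1, the midzone crosslinker, was 0.280 ± 0.00919 and 0.339 ± 0.0124, also without overlap. Kif14 to Cit was 0.840 ± 0.184 and 0.546 ± 0.0944, and here the groups overlapped through control library 3, where Cit was at 14.9 FPKM against 8.80 to 10.9 in the other controls. As a ratio of CPM, Kif14 to Cit was 1.30 ± 0.0627 and 0.902 ± 0.0547 without overlap. Kif15 to Tpx2, the spindle protein that recruits it, was 0.428 ± 0.0180 and 0.772 ± 0.0698, and Kif15 to Kif11 was 0.668 ± 0.0265 and 0.993 ± 0.115, both without overlap. By CPM these ratios were 0.537 ± 0.0102 and 0.925 ± 0.0787 for Tpx2, and 0.629 ± 0.0136 and 0.884 ± 0.0515 for Kif11, also without overlap. For Kif15 to Kif11, tranilast library 2 was the highest of its group by FPKM (1.15) and the lowest by CPM (0.827). As the kinesin in each ratio was chosen for its decrease, no test is given.

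Other spindle kinesins were examined with the edgeR quasi-likelihood test, Benjamini-Hochberg adjusted over all 10770 genes tested. Of 7 such genes 6 were tested, 4 fell and 0 rose, where 28.8% of all genes tested fell and 28.2% rose, and Kif2b, a kinesin related to Kif2c, had no count in any library. The median log2 fold change of the 6 was -0.64. Cenpe, the kinetochore motor that carries chromosomes to the equator, fell most: 187, 175, 187 and 183 CPM in control and 70.9, 67.5, 77.1 and 69.0 CPM in tranilast libraries. The groups did not overlap, and the log2 fold change of Cenpe was -1.36 (SE 0.0429, edgeR adjusted p = 1.2e-14). Kif18a, which dampens chromosome movement and is the closest relative of Kif18b, changed from 30.9 ± 2.88 to 15.4 ± 1.32 CPM (SD, n = 4; SE of the log2 fold change 0.0851, edgeR adjusted p = 1.4e-08), beside a log2 fold change of -0.79 for Kif18b. Kif20b, a relative of Kif20a in cytokinesis, fell by 0.89 (SE 0.0556, edgeR adjusted p = 2.2e-10), against -1.82 for Kif20a. Kifc5b, the near copy of Kifc1, had a log2 fold change of -0.39 (SE 0.0695, edgeR adjusted p = 1.2e-04). As the split of reads between Kifc5b and Kifc1 is uncertain, this call is not separate from the decrease of Kifc1. Kif2a, a microtubule depolymerase like Kif2c that also acts outside mitosis, was at 57.5 ± 1.58 CPM in control and 60.0 ± 2.32 CPM in tranilast libraries (SD, n = 4), a log2 fold change of 0.06 (SE 0.0466, edgeR adjusted p = 0.267). Kif24, which acts at centrioles, also had a log2 fold change of 0.06 (SE 0.0588, edgeR adjusted p = 0.406). With scaling by library size alone, both of them were called higher, with edgeR adjusted p = 0.0033 for Kif2a and 0.0155 for Kif24.

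Transport and cilia kinesins move vesicles, organelles and ciliary cargo. Of 26 genes, 18 were tested, 4 fell and 10 rose, beside 28.8% lower and 28.2% higher over all genes tested, and their median log2 fold change was 0.33. Kif3a, the motor subunit of the ciliary transport kinesin, rose from 20.4 ± 1.37 to 31.7 ± 1.33 CPM (SD, n = 4) and its log2 fold change was 0.64 (SE 0.0699, edgeR adjusted p = 4.0e-07). Kif7, a regulator of Hedgehog signaling in cilia, rose by 0.82 on the log2 scale (SE 0.137, edgeR adjusted p = 5.3e-05). Kifc2 had a log2 fold change of 2.02 (SE 0.445, edgeR adjusted p = 8.3e-04), resting on at most 8 counts in a control and 31 in a tranilast library, and on the log2(FPKM + 1) scale it was 0.41. The genes called lower were Kif17, a neuronal cargo motor (log2 fold change -0.91, SE 0.267, edgeR adjusted p = 0.0074, and -0.29 on the log2(FPKM + 1) scale), and, named after their values were seen, Kif21b, Kifc3 and the vesicle motor Kif5b, at -0.26, -0.20 and -0.09. With scaling by library size alone 2 transport kinesins were called lower. The remaining 8 genes, such as Kif6 and Kif12, had at most 23 counts in any library.

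**Figure D4:**
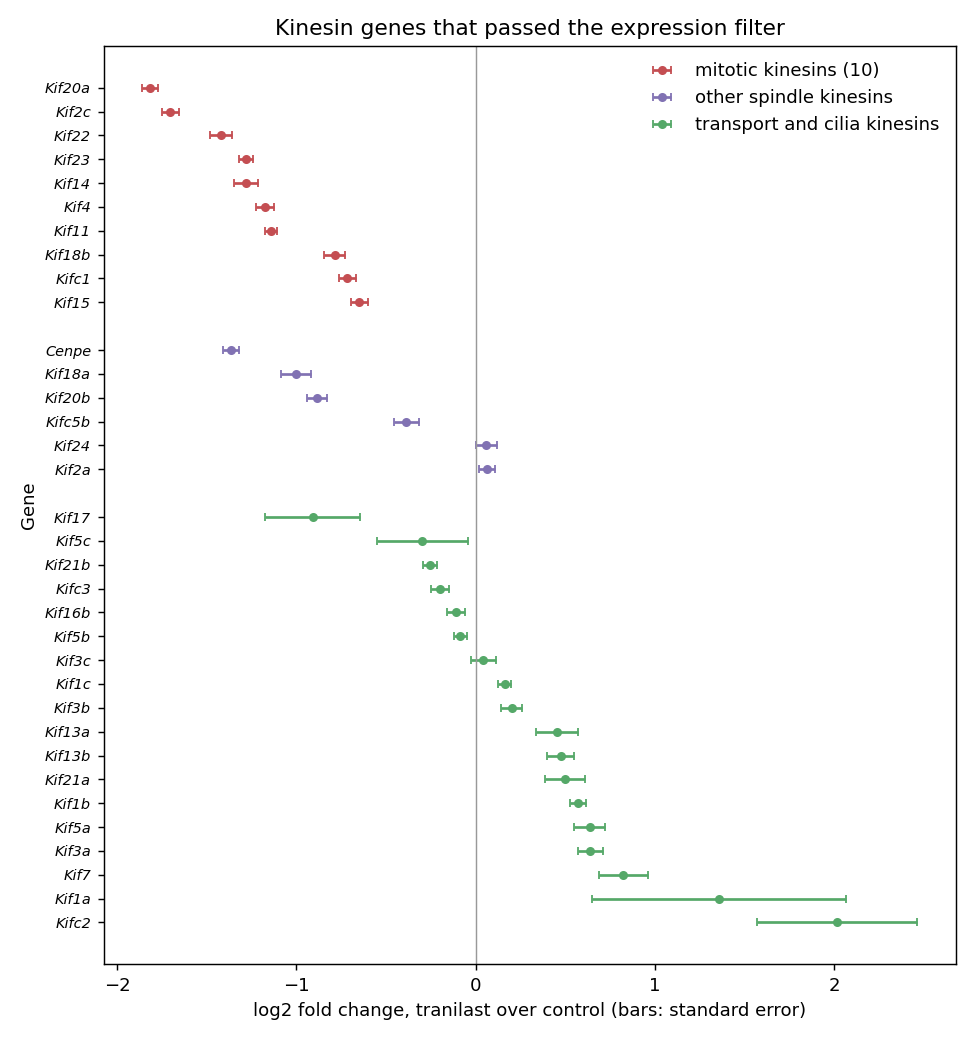
Log2 fold change, tranilast over control, with its standard error, for the 34 kinesin genes that were tested. The 10 mitotic kinesins run from -1.82 to -0.65, other spindle kinesins from -1.36 to 0.06, and transport and cilia kinesins from -0.91 to 2.02.

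Among the light chains and accessory proteins that link kinesins to cargo, 4 of 6 genes were called higher and 0 lower, beside 28.2% and 28.8% of all genes tested, with a median log2 fold change of 0.21. Klc4, a kinesin light chain, rose by 0.48 on the log2 scale (SE 0.0821, edgeR adjusted p = 8.0e-05) and Kifap3, which binds the Kif3 motors, by 0.31 (SE 0.0555, edgeR adjusted p = 1.0e-04). Klc3 (0.59, edgeR adjusted p = 0.0487) and Klc1 (0.10, edgeR adjusted p = 0.0331) were near the limit: Klc3 was lost when control library 1, 2 or 3 or tranilast library 1, 3 or 4 was left out, and Klc1 without control library 1, 2 or 4 or tranilast library 2 or 3 or with no filter on low counts (edgeR adjusted p = 0.0636), and without control library 1 or 2 or tranilast library 3 only 2 genes of the list were called.

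The proteins that mitotic kinesins carry, bind or share the midzone and spindle with moved in the same direction as the 10 kinesins: 16 of 16 tested genes fell, beside 28.8% of all genes tested, with a median log2 fold change of -1.15. Mapre1, a microtubule end-binding protein named after its values were seen, had the smallest change, -0.19 (SE 0.0344), and was not called with scaling by library size alone (edgeR adjusted p = 0.0585) or on the log2 FPKM scales, which left 15 genes called. Hmmr, a spindle assembly factor, had the lowest value, -1.78 (SE 0.0459, edgeR adjusted p = 1.5e-15), from 141 ± 4.39 to 41.2 ± 2.28 CPM (SD, n = 4). Nusap1, which bundles microtubules near chromosomes, was at -1.54 (SE 0.044, edgeR adjusted p = 3.7e-15). Prc1 was at -1.46 (SE 0.0458, edgeR adjusted p = 1.2e-14) and Tpx2 at -1.43 (SE 0.0344, edgeR adjusted p = 5.3e-16), beside -1.18 for Kif4 and -0.65 for Kif15. The list was assembled with earlier results of these libraries known and is not independent evidence of its direction.

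Dynein is the motor that walks the opposite way to most kinesins. Of 16 tested genes of dynein and dynactin, the minus-end-directed cytoplasmic motor and its activator, 4 fell and 7 rose, the former close to the 28.8% of all genes tested that fell (28.2% rose), with a median log2 fold change of -0.01. Nde1, a dynein regulator active in mitosis, fell by 0.51 on the log2 scale (SE 0.0537, edgeR adjusted p = 2.4e-07), while its relative Ndel1 rose by 0.40 (SE 0.0462, edgeR adjusted p = 8.1e-07). Dync1li1, a light intermediate chain, rose by 0.28 (SE 0.0472, edgeR adjusted p = 6.3e-05). The light chain Dynll1 fell by 0.25 (SE 0.0454, edgeR adjusted p = 1.5e-04), and the other genes called lower, named after their values were seen, were Dync1i2 and Dynlrb1, at -0.15 and -0.14.

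Pcna, a replication factor that is not itself a licensing factor, and the Mcm helicase subunits act in S phase. These 7 genes, here called replication licensing genes, lay between -0.08 and 0.11 in log2 fold change. The 10 mitotic kinesins lay between -1.82 and -0.65. Pcna was at 497 ± 18.2 CPM in control and 505 ± 10.1 CPM in tranilast libraries (SD, n = 4). Of the 7 genes, 2 fell and 1 rose, beside 28.8% of all genes tested that fell and 28.2% that rose. With upper-quartile factors 4 of the 7 were called higher, and with library size alone 5. Mcm4 was called higher (0.11, SE 0.0313, edgeR adjusted p = 0.0080). Mcm2 (-0.08, SE 0.0297, edgeR adjusted p = 0.0369) and Mcm5 (-0.07, SE 0.0257, edgeR adjusted p = 0.0200) were called lower. The signs of Mcm2 and Mcm5 turned with scaling by library size alone and on the log2 FPKM scales. Mcm2 was no longer called without control library 3 or 4 or tranilast library 1, 3 or 4, and Mcm5 without control library 4 or tranilast library 1 or 4, which left 0 to 2 genes called lower.

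**Figure D5:**
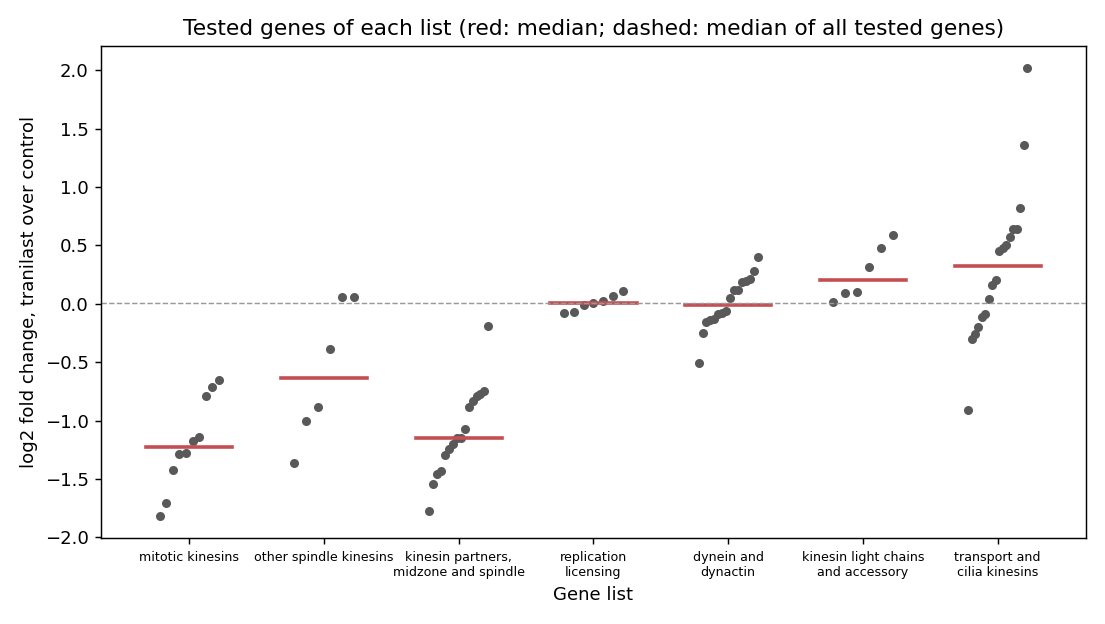
Log2 fold change, tranilast over control, of each tested gene (points) in 7 gene lists, with the list's median (red) and the median of all genes tested, 0.01 (dashed). Mitotic kinesins and their partners have medians of -1.23 and -1.15, replication licensing genes and dynein with dynactin 0.01 and -0.01, and transport and cilia kinesins 0.33.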

How the data were processed

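RNA was measured in 8 libraries, 4 per group, grouped by the treatment in the sample labels. The study's methods name TruSeq libraries of poly-A RNA read from both ends on a HiSeq X-ten, whereas the labels name a NovaSeq instrument. For each gene the authors deposited estimated counts, some of them not whole, and FPKM values, which scale reads by transcript length and depth. Aligner, counting tool and genome build are not given in the sources used here. The counts were rounded, filtered with filterByExpr by group (10770 genes left), scaled by TMM and fitted without a covariate in edgeR 4.0.16 (quasi-likelihood test, R 4.3.3), and p-values were adjusted by the Benjamini-Hochberg method over all genes tested. A gene was called at an adjusted p-value under 0.05. The fit was also run on simulated counts in which all genes had the same dispersion. That run cannot show how the fit handles the spread of these data, and nothing is read from it. The floor of 3 counts, which a count of 0 allows, equals 0.196 to 0.240 TMM-scaled CPM and covers counting error only.

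The kinesins and gene lists were chosen with earlier results of these data known. Named were all 10 kinesins, every tested gene among the other spindle kinesins, the 4 called genes of largest absolute log2 fold change in each other list, and the 5 other genes of mean count 50 or more nearest to the mean kinesin profile of log2(CPM + 0.1). Gene positions are those of GENCODE M21 on GRCm38, matched by identifier for 21973 genes (90 unmatched), and promoter windows are from RefSeq. Transcripts were aligned to those of relatives with Biopython 1.88. Protein sequences were not used here. Alternatives were other scaling (RLE, upper quartile, library size), other filters, DESeq2 1.42.0, limma 3.58.1 (voom, and trend on log2 FPKM with 1 or 0.1 added), the replicate number as a block, and each library left out. With 4 libraries a group, no test of single genes outside the common fit was made.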

Additional observations from a re-analysis of the deposited data

Results flagged for a closer look

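Among 70 groups of 4 libraries, those of the 10 kinesins and of the 25 genes named from the other lists by rule, 3 held a library that stood far from the other 3 by Dixon's criterion, which chance meets in about 1 of 20 groups; none was a group of the 10 mitotic kinesins. Tranilast library 2 was the highest for Kifap3, at 61.3 CPM against 53.6 to 54.5 CPM in the others. Tranilast library 1 was the lowest for Nde1, at 57.9 CPM against 68.2 to 69.6 CPM. Tranilast library 2 was the highest for Mcm5, at 394 CPM against 381 to 383 CPM.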

How the results depend on the processing

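The 10 mitotic kinesins stayed lower under all 18 alternatives, and their median log2 fold change less that of all genes ran from -1.26 to -1.10. The median itself was -1.16 with upper-quartile factors, -1.11 with library size alone, and -0.997 and -1.09 on log2 FPKM with 1 and 0.1 added, and -1.24 to -1.20 with a library left out. In that order of settings the median of all genes moved by 0.0676, 0.116, 0.0945 and 0.108, other spindle kinesins called higher were 1, 2, 1 and 1, licensing genes called lower 0 in each and called higher 4, 5, 5 and 5, and dynein genes called lower 2 in each. With library size and the FPKM scales, transport kinesins called lower were 2, 1 and 1, and all genes called lower were 1893, 1660 and 1663 (3104 as reported), with 4613 called higher under library size (3039 as reported). Genes lower by 1.5 or more numbered 123 without a filter, 33 with at least 10 counts in every library, 17 and 31 on the FPKM scales, and 52 as reported. DESeq2 called 2 light chain genes higher. Reversed were Mcm2 (0.041, 0.040, 0.041) and Mcm5 (0.042, 0.039, 0.040) with library size and the FPKM scales. Leaving out 1 library gave 2 to 3 light chain genes higher, and 0 to 2 licensing genes lower and 1 to 2 higher. The cause was not tested. Libraries of the same number did not deviate together (correlations -0.056 to 0.107). With 4 libraries a group this cannot exclude that the numbers pair them. With the replicate number as a block 1 licensing gene was called lower, with Mcm2 at edgeR adjusted p = 0.060. Depth limits low genes such as Kifc2.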
